A study of Homo sapiens with 4 samples.

Results

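The library of HEK293T cells transfected with a vector for SF3B1-R625H was set against the library transfected with a vector for SF3B1-K700E, which are 2 of the 4 libraries of the series. They were taken by the vector named in the labels, with 1 library a side. HEK293T is a human line from embryonic kidney cultures, and poly(A) RNA was read as stranded pairs of reads. The R625H library received 1000 ng of plasmid and the K700E library 2000 ng, per the labels, so the substitution and the amount of plasmid cannot be told apart in any difference given here. The other libraries carried wild-type SF3B1 (WT, amount not given in the sources used here) and SF3B1-K666T (1000 ng). Their values are given beside the comparison and enter none of its tests. In all 4 libraries the vector was added to cells that keep their own SF3B1 gene. Where 4 values of a gene follow each other, they stand in the order WT, R625H, K666T and K700E. The test of each splice site compares 2 libraries and not the conditions, and intervals cover counting error only.

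SF3B1 is the largest subunit of SF3b, the part of the U2 snRNP that holds the branch point adenosine of an intron before the first step of splicing. Cancer-associated substitutions in its HEAT repeats let the spliceosome use a different branch point, and a cryptic acceptor (3' splice site) a short distance upstream of the usual one is then joined to the donor. An exon joined at the upstream acceptor is longer at its 5' end, and a shift out of frame often leads to nonsense-mediated decay of the RNA. R625H is best known from uveal and mucosal melanoma and K700E from myelodysplastic syndromes and chronic lymphocytic leukaemia.

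Reads assigned to genes came to 82254731 in R625H and 83025588 in K700E, and uniquely mapped junction reads on a known strand to 65939159 and 71055491. K700E thus had 85.6 junction reads for each 100 gene reads, against 79.1 to 80.2 in the other 3 libraries. SF3B1 stood at 517.3 CPM (the reads of a gene scaled to all reads in genes) in R625H and 512.2 in K700E, a log2 ratio of -0.01. Whether vector reads count towards the gene was not tested, so this level checks no label. The epithelial keratins KRT8 and KRT18, VIM, CDH2 and NEFM, all known in this line, were read in both libraries. PTPRC, CD3E, HBB and ALB, which mark leukocytes, T cells, erythroid cells and hepatocytes, were at most 0.422 CPM in both.

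The upstream acceptor was used more in R625H than in K700E at most sites that differed. Among 4999 pairs of acceptors that share a donor and lie 10 to 30 nt apart, the share of reads on the upstream acceptor was higher in R625H at 48 pairs in 47 genes (0.96% of those tested) and higher in K700E at 5 pairs (0.1%). A call needed an adjusted p under 0.05 in a two-sided Fisher's exact test of the reads, with Benjamini-Hochberg adjustment over all 4999 pairs, together with shares that lay 10 or more percentage points apart. With no limit on size, 171 pairs passed the adjusted p towards R625H and 22 towards K700E. The share in R625H was above that in K700E at 59.2% of all tested pairs, with a median difference of 0.09 points. The lean was thus present across the class but small at the typical pair. Among 4879 pairs that took at least 5% of their donor's reads, a limit chosen after seeing the data, 43 (0.881%) and 4 (0.082%) were called.

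**Figure D1:**
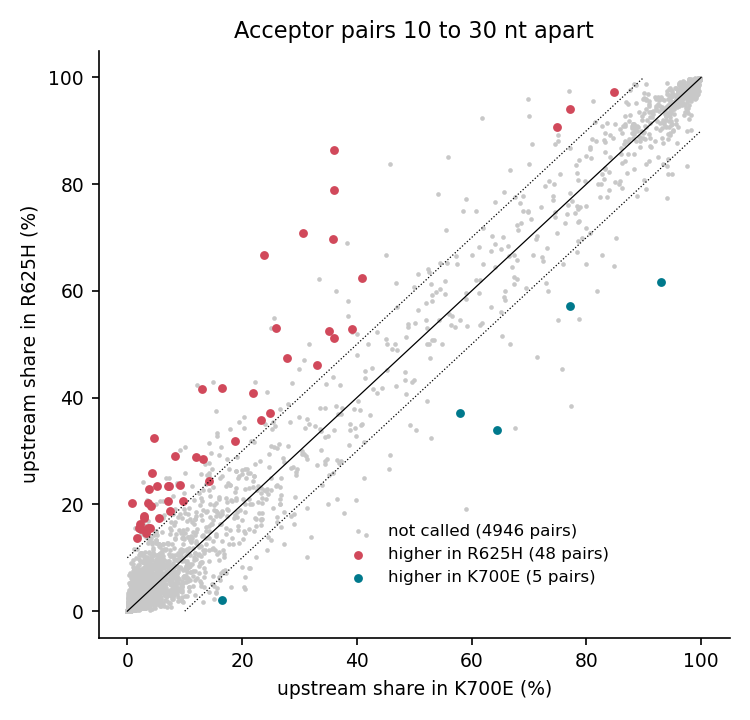
Upstream acceptor share in K700E (x axis, %) and in R625H (y axis, %) for the 4999 tested pairs 10 to 30 nt apart. Each point is a pair, the solid line marks equal shares and the dotted lines a difference of 10 points. The 48 pairs higher in R625H lie mostly at low shares in K700E, and 5 pairs lie on the other side.

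The stretch between 2 acceptors becomes part of the exon when the upstream acceptor is used. It can be shown where a GENCODE 29 transcript (GRCh38) already holds the longer exon, which was so at 15 of the 48 pairs. The lines that follow show coding ones, since they give the added sequence itself. Each gives 12 bases of the preceding exon in lower case, the bases between the acceptors in capitals, and 12 bases of the shared exon in lower case, all read 5' to 3' along the transcript.
TGFBR1: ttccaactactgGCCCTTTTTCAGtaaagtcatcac
TUT4: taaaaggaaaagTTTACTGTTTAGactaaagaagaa
UXS1: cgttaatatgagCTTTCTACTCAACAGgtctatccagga
APPL2: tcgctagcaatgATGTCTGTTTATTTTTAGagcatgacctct
GCLC: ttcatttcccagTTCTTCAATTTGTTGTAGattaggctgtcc
THOC1: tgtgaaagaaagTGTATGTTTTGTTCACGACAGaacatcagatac
FBXO21: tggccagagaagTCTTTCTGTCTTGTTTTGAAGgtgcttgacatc
KIF23: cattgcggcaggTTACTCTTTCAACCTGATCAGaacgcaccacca

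Of the pairs that were higher in K700E, these 2 can be shown in the same way.
TSACC: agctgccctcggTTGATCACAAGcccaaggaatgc
ZNF561: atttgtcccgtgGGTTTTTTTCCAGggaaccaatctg

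Each added stretch ends in AG, the last 2 bases of an intron that ends at the downstream acceptor. This was so at 1399 of the 1401 tested pairs with an annotated upstream acceptor and a transcript sequence. The bases before that AG were rich in C and T. Their C plus T content had a median of 78.9% at the 15 annotated pairs higher in R625H, and reached 90.9% in ZNF76 and ZNF771. It was 71.4% over the 1401 tested pairs. The median T content was 50% against 38.1%. These are descriptions of few sequences, taken from those that are annotated.

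Some of the genes with the largest differences encode proteins of RNA processing. At an unannotated acceptor of USP39, a protein of the tri-snRNP (chromosome 2, 85850728, the last intron base on hg19, 20 nt upstream), the share was 69.7% of 165 reads in R625H and 35.8% of 81 in K700E. K666T had 10.7% of 84 reads there and WT none of 39, which allows a share of up to 7.69%. R625H exceeded K700E at the USP39 pair by 33.9 points (adjusted p = 5.3e-05 in Fisher's exact test). NOP58, a core protein of box C/D snoRNPs (chromosome 2, 203162080, 21 nt), had 0, 41.6, 11.9 and 13.1%. The USP39 and NOP58 pairs took only 15.2 and 6.23% of the reads of their donor in R625H, so most of these transcripts used neither acceptor. In both genes R625H was the highest library, and K666T lay below K700E.

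The other named pairs followed the same direction with different ranks of K666T. LYPLAL1, a lysophospholipase-like hydrolase (chromosome 1, 219383856, 17 nt), had 15.9, 70.9, 55.4 and 30.7%. At TGFBR1, the type I receptor of TGF-beta (chromosome 9, 101894778, 12 nt, the in-frame stretch shown first above), the shares were 8.74, 41.8, 33.7 and 16.5% (95% intervals 33.4 to 50.7 in R625H and 10.1 to 25.8 in K700E). ZNF76, a zinc finger gene (chromosome 6, 35258029, 13 nt), had 3.47, 25.9, 19.3 and 4.33% (adjusted p = 9.9e-10). In these 3 genes K666T lay nearer to R625H. GAS8, part of the dynein regulatory complex of cilia (chromosome 16, 90106693, 14 nt), had 3.85, 32.5, 7.02 and 4.60%, so there R625H was the one high library (adjusted p = 5.5e-08).

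CCDC66, a protein of centrosomes and cilia (chromosome 3, 56649931, 18 nt), had 17.9, 62.3, 54.5 and 40.8%, and RWDD4 (chromosome 4, 184577128, 13 nt) 2.94, 29.1, 18.6 and 8.22%. The RWDD4 call was lost with multi-mapped reads (14.1 points, adjusted p = 0.147), where an acceptor could be unread (0.0805) and at 10 to 50 nt (0.0524). STT3A, a catalytic subunit of oligosaccharyltransferase, had 0, 53, 13.8 and 26.0% at a 5' UTR exon that took 4.68% of the donor's reads in R625H. Of the 12 largest differences, those of ATP5F1A, a subunit of ATP synthase (16.7, 86.5, 65.5 and 36.0%), and MYL6, a myosin light chain (58.9, 66.7, 67.5 and 23.8%), came from under 1% of the reads of their donors. The MYL6 difference was 2.17 points and not called when multi-mapped reads were added.

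**Figure D2:**
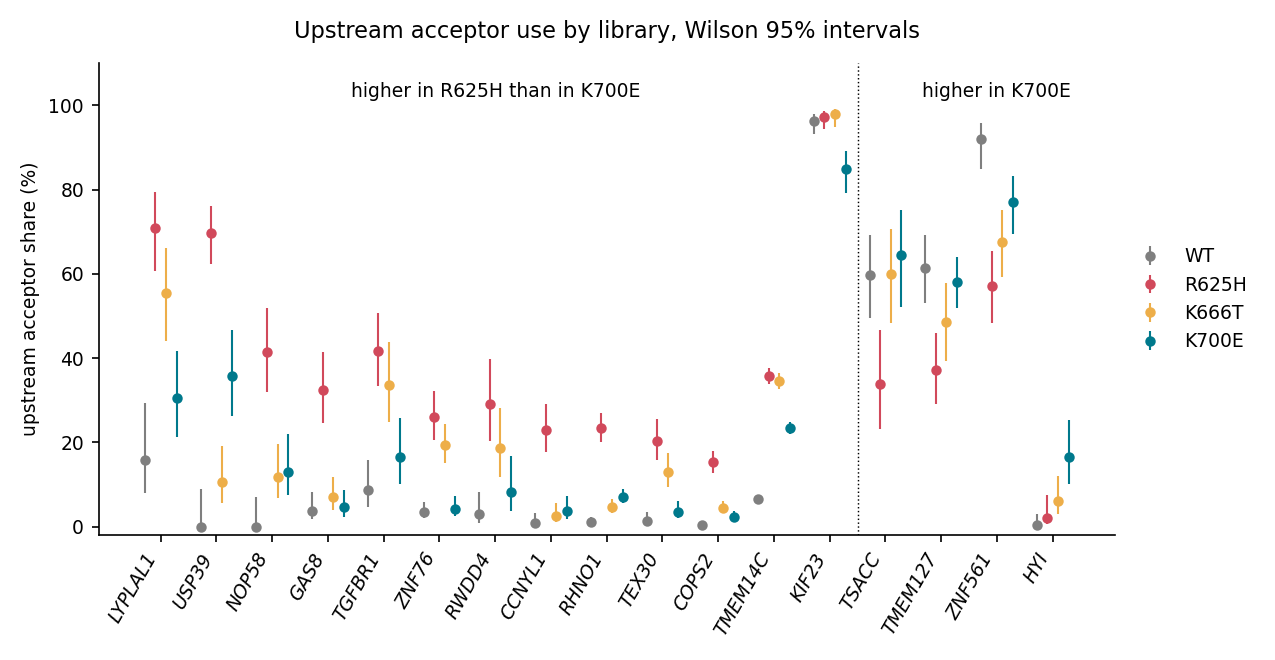
Upstream acceptor share (y axis, %) of 17 called pairs in WT, R625H, K666T and K700E, with Wilson 95% intervals from the reads of each library. Left of the dotted line the share was higher in R625H than in K700E, and right of it lower. KIF23 differs from the other pairs on the left in that WT lies beside R625H, and at TSACC and TMEM127 on the right WT lies beside K700E.

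The best covered pairs showed the difference with narrow intervals. TMEM14C, a transporter of the inner mitochondrial membrane used in making heme (chromosome 6, 10724788, 14 nt), had 35.7% of 2322 reads in R625H and 23.4% of 3491 in K700E, with 34.7% in K666T and 6.65% in WT. RHNO1, a factor of the DNA damage checkpoint (chromosome 12, 2994428, 20 nt), had 140 of 597 reads in R625H and 64 of 908 in K700E (23.5 and 7.05%), with 1.08% in WT and 4.72% in K666T. COPS2, a subunit of the COP9 signalosome, had 15.3% of 732 reads against 2.34% of 728, with 0.418 and 4.55% in WT and K666T. TEX30 had 20.3% against 3.55%, and CCNYL1, a cyclin Y relative, 22.9% against 3.76%. C1D, a cofactor of the nuclear exosome, was called at 2 pairs that share the upstream acceptor, with 23.4% against 7.25% at the better covered one. K700E lay nearer to WT than to R625H in each of these genes other than TMEM14C, taking the better covered C1D pair.

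Further members have known roles in RNA export, metabolism and signalling. THOC1, of the THO complex of mRNA export (chromosome 18, 224201, 21 nt), had 28.5% in R625H against 13.2% in K700E, with 7.17% in WT. UXS1, which makes UDP-xylose, had 51.2 against 36.0%, and GCLC, the catalytic subunit of the first enzyme of glutathione synthesis, 14.6 against 3.24% with 0 of 290 reads in WT. APPL2, an adaptor of endosomes, had 28.8 against 12%, TUT4, an RNA uridylyltransferase, 47.4 against 27.9%, FBXO21, an F-box protein, 46.2 against 33.1%, and SLC38A9, an arginine sensor of lysosomes, 16.4 against 2.23%. WNT10B, a Wnt ligand, had 23.4 against 5.13%, and HIP1R, a clathrin and actin adaptor, 17.9 against 2.97%. CDC7 and STK17B, both kinases, had 13.7 against 1.60% and 15.6 against 3.57%. In each of these genes the R625H share was also above WT, and UXS1 and TUT4 used the upstream acceptor often in WT already, at 27.9 and 31.2%. Where an acceptor could be unread, the calls of WNT10B (adjusted p = 0.0632) and UXS1 (0.0763) were lost, and at 10 to 50 nt that of UXS1 (0.0505).

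At the KIF23 pair K700E was the library that differed, and at the RPS13 pair it lay below WT and R625H. KIF23, a kinesin of cytokinesis (chromosome 15, 69737128, 21 nt), used its upstream acceptor in 96.2% of reads in WT, 97.3% in R625H and 98.0% in K666T, but in 84.8% of 198 reads in K700E (adjusted p = 3.6e-04). RPS13, a ribosomal protein, had 55% in WT, 52.5% in R625H and 35.2% in K700E. K666T had 0 of 250 reads there, which allows a share of up to 1.2%. The RPS13 pair was 6.45 points apart and not called with multi-mapped reads added. In KIF23 the longer exon was the usual one, and K700E used the downstream acceptor more than the other libraries.

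At 4 of the 5 pairs higher in K700E, R625H lay below WT, and the 5 were chosen by a lower share in R625H. TSACC, a co-chaperone (chromosome 1, 156316558, 11 nt), had 59.8, 33.9, 60 and 64.5%. TMEM127, a membrane protein of the endosomal system (chromosome 2, 96931251, 23 nt), had 61.5, 37.2, 48.6 and 58.0%, and ZNF561 (chromosome 19, 9728856, 13 nt) 92.0, 57.1, 67.7 and 77.1%. HYI, a hydroxypyruvate isomerase homologue (chromosome 1, 43917703, 18 nt), went the other way, with 0.538, 2.17, 6.09 and 16.5%. TRIM28, a corepressor of zinc finger proteins, had 61.8% of 34 reads in R625H against 93.0% in K700E, but the difference was 0.41 points in the opposite direction once multi-mapped reads were added. Multi-mapped reads also ended the ZNF561 call (-16.1 points, adjusted p = 0.087). The TSACC call was lost where an acceptor could be unread (adjusted p = 0.0573).

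The 48 pairs higher in R625H had a median distance of 18 nt, from 12 to 28 nt, against 20 nt for all tested pairs. Calls towards R625H were made at 11 of 609 pairs 10 to 14 nt apart (1.81%), 18 of 1734 at 15 to 19 nt (1.04%), 15 of 1604 at 20 to 24 nt (0.935%) and 4 of 1052 at 25 to 30 nt (0.38%). Exons with coding sequence held 42 of them, 5' UTR exons 3 and non-coding transcripts 3. The upstream acceptor was annotated at 15 and not at 33. Its distance was a multiple of 3 at 24 and not at 24, so 50% would shift the frame where coding, against 58.1% of all tested pairs. The median share of the 48 pairs was 28.6% in R625H and 10.8% in K700E, beside 2.35% in WT and 12.4% in K666T.

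K666T fell between the compared libraries at 28 of the 48 pairs, below K700E at 15 and above R625H at 5. It lay nearer to K700E at 30 and nearer to R625H at 18. K700E was above WT at 42 pairs and R625H at 47, and in WT the upstream acceptor had no read at 15. The 48 pairs were chosen by a higher share in R625H than in K700E, so the counts against WT follow in part from that choice. The same counts were not made over all tested pairs. No test was made against WT. The RNA level of the genes hardly differed: 45 of them could be measured, with a median log2 ratio of K700E over R625H of 0.04 and a range of -0.63 to 0.43, and none was 2-fold apart.

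Of 38 genes best known for cryptic acceptors under mutant SF3B1, 33 had a tested pair. Of their 75 pairs, 2 were higher in R625H (TMEM14C and GAS8, 2.67%) and 1 in K700E (ZNF561, 1.33%), beside 0.96 and 0.1% of all 4999 pairs. The pairs of the other 30 genes were not called. DPH5, of diphthamide synthesis, had 18.9% in R625H and 19.7% in K700E (0.143% in WT, 18.1% in K666T). SEPTIN6 had 18.6 and 20.5%, TTI1, which stabilises mTOR and ATM with its partners, 27.0 and 28.9%, ZDHHC16, a palmitoyltransferase, 21.1 and 19%, and MAP3K7, the kinase TAK1, 23.2 and 21.9%. BRD9, of a SWI/SNF complex, had 85.6 and 88.3% (on 104 and 77 reads). Several of these shares had wide counting intervals, and a p that misses the threshold does not show that they were alike.

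Other known genes had higher shares in R625H but missed the limit of 10 points or the adjusted p. DYNLL1, a dynein light chain, had 31.8% of 7584 reads in R625H and 22.1% of 11476 in K700E, a difference of 9.70 points with an adjusted p of 1.5e-46 in the exact test. DLST, an enzyme of the citric acid cycle, had 26.2 and 19%, SLC3A2, the heavy chain of amino acid transporters, 10.7 and 4.65%, and SERBP1, an RNA-binding protein, 67.4 and 63.3%. These 4 passed the adjusted p. ENOSF1, with 42.8 and 28.8%, and BUB1B, a kinase of the spindle checkpoint, with 25.4 and 16.4%, did not (adjusted p = 0.129 and 0.0508). The median difference over the 75 pairs was 0.12 points, close to the 0.09 points of all tested pairs.

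Pairs of other distances, and pairs of donors, gave smaller shares of calls towards R625H, a difference between classes that was not tested. Acceptor pairs 3 to 9 nt apart gave 8 calls towards R625H (0.392% of 2041) and 6 towards K700E (0.294%). Acceptor pairs 31 to 100 nt apart gave 8 (0.174% of 4590) and 11 (0.24%). Donor pairs gave 1 call towards R625H at 3 to 9 nt (0.0704% of 1420), 1 at 10 to 30 nt (0.0527% of 1899) and 5 at 31 to 100 nt (0.147% of 3397), with 0, 0 and 5 towards K700E. Over 16026 pairs 10 to 30 nt apart whose downstream acceptor alone is annotated, the pooled share of the upstream acceptor was 0.359% in R625H (Wilson 95% interval 0.356 to 0.363) and 0.280% in K700E (0.277 to 0.282), with 0.176% in WT and 0.262% in K666T. A junction that belongs to more than 1 pair was counted once in each. The summed reads are therefore not all separate reads, and these intervals are approximate.

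**Figure D3:**
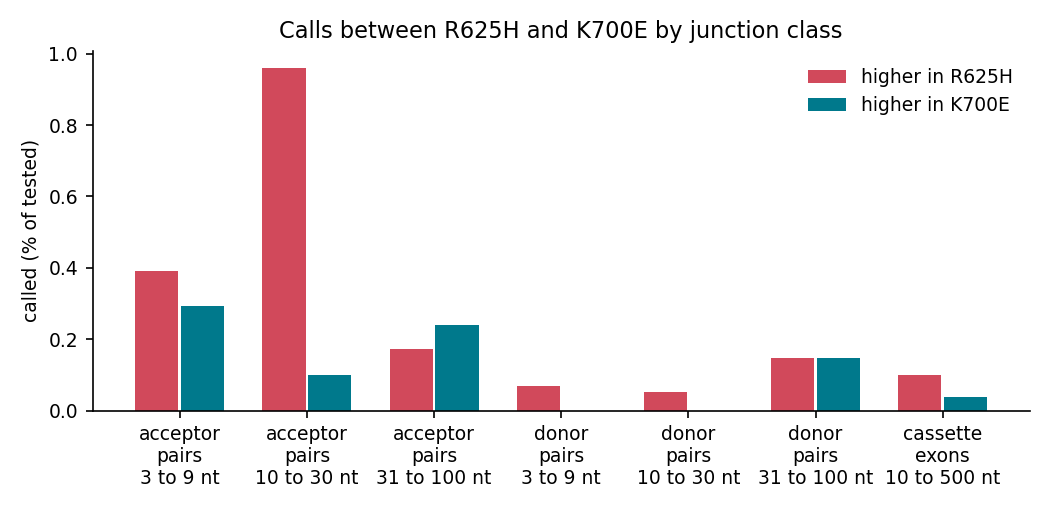
Percent of tested pairs or exons called between R625H and K700E (y axis), by class of junction and by direction. The bar of acceptor pairs 10 to 30 nt apart that were higher in R625H reaches 0.96%, and the other bars lie at or below 0.392%.

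Where an acceptor had no read in one of the compared libraries, calls in either direction were close in number. Of 9234 such pairs, 18 were higher in R625H and 19 in K700E. With these pairs included, 58 (0.408% of 14233) and 23 (0.162%) were called. HSPA8, a chaperone (29 nt), had 187 of 225 reads on the upstream acceptor in R625H and 0 of 30 in K700E, which allows up to 10%. RACK1, of the small ribosomal subunit (21 nt), had 0 of 103 in R625H, which allows up to 2.91%, and 73.8% of 462 in K700E, with 77.1% in WT and 17.9% in K666T. CANX, a chaperone of the endoplasmic reticulum (28 nt), had 0 of 22 in R625H (up to 13.6%) and 110 of 120 in K700E. TK1, thymidine kinase (19 nt), had 0 of 30 (up to 10%) and 64 of 86. The HSPA8, RACK1, CANX and TK1 pairs each held under 7% of the reads of their donors, and each direction is represented among them.

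Inclusion of cassette exons was called more often towards R625H, which means more skipping in K700E. Of 54147 exons of 10 to 500 nt with both ends annotated, inclusion was higher in R625H at 54 exons in 51 genes (0.0997%) and higher in K700E at 21 exons in 19 genes (0.0388%). WT lay nearer to R625H at 44 of the 54 exons and K666T at 43. The 54 exons were chosen by a higher inclusion in R625H than in K700E. The same counts were not made over all tested exons. The median inclusion of the 54 exons was 74.5% in R625H and 58.6% in K700E, beside 75.4% in WT and 68.3% in K666T. Inclusion is the mean of the reads of the exon's 2 junctions over that mean plus the skipping reads. At many exons those 2 junctions differed widely, and where they lay within 4-fold of each other, 21 of 32424 exons were higher in R625H (0.0648%) and 9 in K700E (0.0278%).

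Examples with junctions within 4-fold show the lower inclusion in K700E. An exon of C19orf12 (chromosome 19, 30196181 to 30196301, 121 nt) was included in 73.6, 77.5, 69.7 and 43.0%, with 16 skipping reads in R625H and 77 in K700E. EMSY, a partner of BRCA2, included a 42-nt exon in 43.8, 51.3, 26.4 and 17.4%, so that K666T lay between. HMGA1, an architectural chromatin protein, had 61.2, 61.2, 58.4 and 41.7% at a 5' UTR exon of 114 nt, with 278 and 557 skipping reads in R625H and K700E. EIF4G2, a translation factor, had 97.3, 94.5, 92.3 and 79.5%, and TEDC2, of the tubulin complexes of centrioles, 58.0, 57.4, 51.8 and 36.0%. A 55-nt GAS8 exon (chromosome 16, 90102041 to 90102095) had 81.2, 79.8, 69.1 and 55.9%. In HMGA1 and TEDC2 the values of WT and R625H were nearly equal.

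Exons of NT5C (61.5% of 26 reads against 10.3% of 29), ZNF761 (89.8 against 52.3%) and TSEN54, a subunit of the tRNA splicing endonuclease (84.2 against 59.6%), had uneven junctions. The RHNO1 exon (69.0 against 39.3%) starts at the upstream acceptor described above, with 140 and 64 reads on that junction, and on its other junction 20 and 43. Exon and pair are therefore 1 observation there, and with the lower of the junctions the exon differed by 1.31 points.

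Exons with higher inclusion in K700E were fewer. CLK4, a kinase of SR proteins (chromosome 5, 178044345 to 178044435, 91 nt), had 60.2, 54.8, 61.9 and 73.6%. CELSR3, a cadherin of planar polarity, had 77.0, 53.3, 75.8 and 87.0%, and NT5C3A, a nucleotidase that is also interferon-induced, 39.9, 41.3, 34.9 and 59.9%. SPEN, a transcriptional corepressor, had 92.0, 82.4, 82.6 and 96.2%. ATF3, a stress-induced transcription factor, had 98 skipping reads in R625H and 6 in K700E (78.2 and 98.3% inclusion), with uneven junctions. The other exons named by size had uneven junctions too, with 42.6 against 92.6% in NACA, 75.7 against 96.6% in PHYHD1, 19.9 against 57.5% in C1D and 68.6 against 87.3% in LYPLAL1. The C1D and LYPLAL1 exons were not called with the lower junction (-3.18 and -1.42 points). Their skipping junctions end at the upstream acceptors of the called C1D and LYPLAL1 pairs, so the same reads enter exon and pair.

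In gene expression the largest difference was in genes of the interferon response, which were higher in K700E. Of 14700 genes with at least 1 CPM in R625H or K700E, 97 were at least 2-fold higher in K700E (0.66%) and 30 at least 2-fold higher in R625H (0.204%), on the scale of log2 CPM with a prior count of 10. The median log2 ratio of all genes was 0.02. With 1 library a side there is no test, and "higher" refers to these libraries. A gene under 1 CPM in 1 of them was kept only through the library where it was higher. Of the 97 genes, 55 stand on lists of interferons, sensors, IRF and STAT factors, interferon effectors, induced chemokines, feedback inhibitors and MHC class I presentation. In that order the lists held 1, 11, 9, 43, 3, 5 and 15 of the 14700 genes. A list of interferon receptors and kinases was counted with them and held 9 genes, none of them among the 55. All these lists were drawn up with earlier results of these data known. Type I interferon is made after RNA or DNA sensors meet nucleic acid in the cytosol, and it acts through its receptor, JAK kinases and STAT factors on a large set of antiviral genes.

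Among the ligands, IFNB1, which encodes interferon beta, was counted with 8, 67, 57 and 362 reads, a log2 ratio of K700E over R625H of 2.27 (counting interval 1.89 to 2.64). The other 7 interferon genes listed were below 1 CPM in both libraries. The chemokine CXCL10 had 30, 209, 180 and 1266 reads (2.53), CXCL11 10, 45, 50 and 246 (2.21), while CXCL8, a chemokine of neutrophils, had 201, 284, 219 and 281 (-0.03). At IFNB1, CXCL10 and CXCL11, K700E was the high library. IFNB1 and CXCL11 were under 1 CPM in R625H, so they were measured only through the library in which they were high.

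Of the sensors and adaptors, 4 of 11 measured were 2-fold higher in K700E. RIGI, a sensor of cytosolic RNA, had 891, 3873, 3055 and 16039 reads (2.03). The related helicases IFIH1 and DHX58 were at 1.80 and 1.88 and the DNA sensor IFI16 at 1.63. EIF2AK2, the RNA-dependent kinase PKR, was at 0.95 and ADAR, which edits double-stranded RNA, at 0.62. The adaptors MAVS (0.09), STING1 (0.07) and TICAM1 (-0.14) and the kinase TBK1 (-0.11) were near 0. No receptor or JAK kinase of the 9 measured was 2-fold apart, with a range from -0.23 in IL10RB to 0.25 in TYK2. Of the IRF and STAT factors, 3 of 9 measured were 2-fold higher, among them IRF7 (1.53) and STAT2 (1.10), and IRF9 (0.68), IRF1 (0.39), IRF3 (0.19) and STAT3 (0.07) were not. Of the feedback inhibitors, USP18, which removes ISG15, was at 1.10 and SOCS3 at 0.06.

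The effectors were higher nearly throughout, with 41 of 43 measured at least 2-fold higher in K700E, none in R625H, and a median of 1.95. A gene was measured from 1 CPM in R625H or K700E. Members such as XAF1 (0.644 CPM in R625H, 7.34 in K700E) thus passed only through K700E. Of the 48 effectors listed, 5 were below this filter, and the list was drawn up with earlier results of these data known. RSAD2, the antiviral enzyme viperin, had 108, 1357, 913 and 15300 reads, 11.1-fold higher in K700E than in R625H (log2 3.47, 3.39 to 3.55). IFIT1, which binds viral RNA ends, went from 16801 to 98989 reads (2.54), IFIT2 from 4618 to 33528 (2.84) and IFIT3 from 4237 to 27146 (2.66). The oligoadenylate synthetases OAS1, OAS2 and OAS3 were at 2.92, 3.47 and 1.95. XAF1 (3.29), APOL6 (3.12), TRIM22 (3.04) and GBP1 (2.75) were also among the highest on the list. ISG15, a ubiquitin-like protein, was at 1.86, and of the membrane proteins that hinder virus entry IFITM1 and IFITM3 were at 2.23 and 2.02 and IFITM2 at 0.43. Outside the lists, the innate immunity gene APOL1 was at 2.89 (37 and 340 reads), and it too was under 1 CPM in R625H (0.450).

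**Figure D4:**
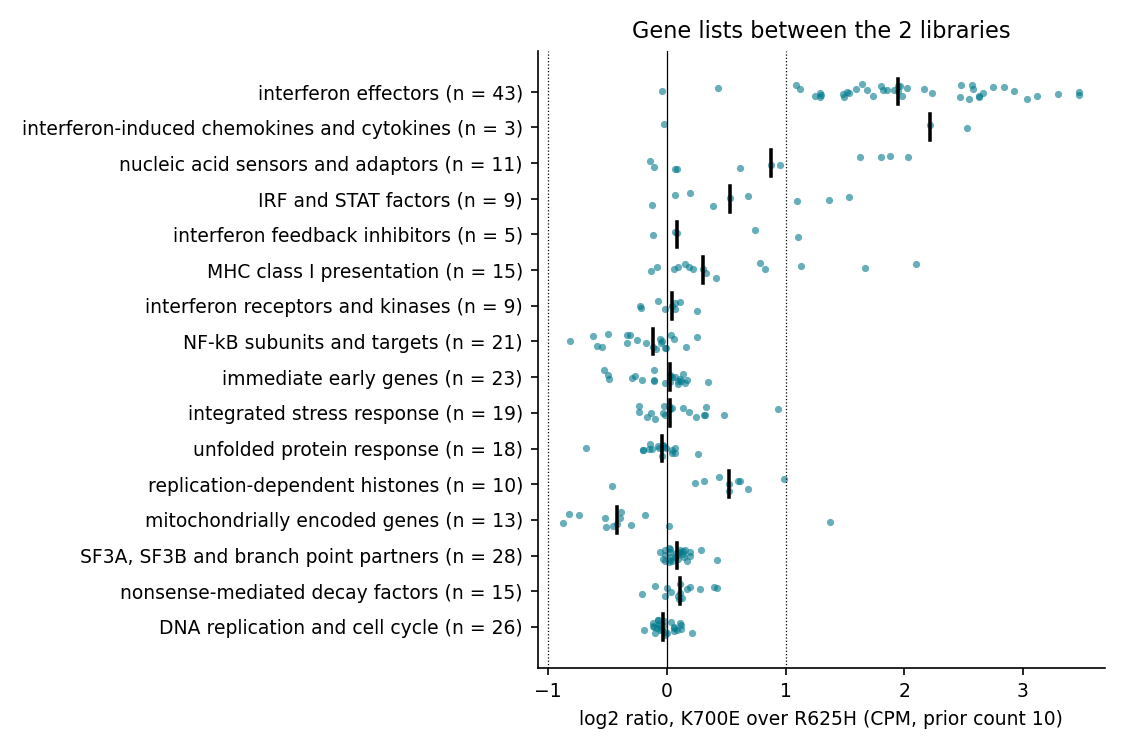
Log2 ratio of K700E over R625H (x axis, from CPM with a prior count of 10) for the measured members of 16 gene lists. Each point is a gene, the black bar the list median and the dotted lines 2-fold. Of 43 interferon effectors 41 lie right of 2-fold, while NF-kB genes lie mostly left of 0 and mitochondrially encoded genes left of 0 but for MT-ND6 and MT-ATP8.

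In MHC class I presentation, genes of regulation and peptide supply passed 2-fold and the class I molecules named here did not. NLRC5, the transactivator of class I genes, had 295, 299, 314 and 1325 reads (2.10), so that only K700E stood apart from WT. The immunoproteasome subunit PSMB9 was at 1.67 and the peptide transporter TAP1 at 1.13, while HLA-E (0.79), B2M (0.33) and HLA-B (0.16) were not 2-fold apart. In all, 3 of 15 passed 2-fold. Of the 97 genes higher in K700E, 45 were also 2-fold higher in R625H than in WT, 38 in K666T and 89 in K700E. These ratios share the WT library. The 97 genes were chosen by the ratio of K700E to R625H, so the counts in K700E and R625H are not independent of that choice. The share of all genes past 2-fold over WT was not counted.

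NF-kB genes, which often accompany interferon beta, did not follow. None of 21 was 2-fold apart, and 17 lay below 0, with a median of -0.12. CXCL2 was at -0.82, BCL3 at -0.62, CD83 at -0.59, the inhibitor NFKBIA at -0.55 (3215 reads in R625H, 2219 in K700E, 2046 in WT and 2374 in K666T) and RELB at -0.50 (1125, 800, 490 and 761 in the same order). R625H was the highest of the 4 libraries in both. IL32, a cytokine, had 154, 531, 169 and 175 reads (-1.56). ANKRD1, a transcription cofactor, had 1271, 4345, 3227 and 2025 (-1.11). In IL32 and ANKRD1 K700E was nearer to WT than R625H was.

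The other lists were close to the median of all genes. Factors of SF3A, SF3B and the branch point had a median of 0.08 over 28 genes, from -0.06 in PUF60 to 0.42 in ZRSR2, a factor of the minor spliceosome. SUGP1, a partner of SF3B1 that is lost from mutant complexes, was at 0.20. SR and hnRNP regulators had a median of 0.05 (30 genes) and nonsense-mediated decay factors 0.11 (15 genes). Genes of the integrated stress response were at 0.02 (19 genes), the unfolded protein response at -0.04 (18), immediate early genes at 0.02 (23), p53 targets at -0.03 (20), cell cycle genes at -0.03 (26), heme and iron genes at -0.04 (20), serine and one-carbon genes at 0.08 (13), sterol genes at -0.02 (23), and hypoxia and glycolysis genes at 0.06 (26). No member of these lists was 2-fold apart. Chaperones had a median of -0.03 over 14 genes, and only HSPE1, the mitochondrial co-chaperonin, was 2-fold lower in K700E (3224 reads against 1367, log2 -1.25).

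Replication-dependent histone genes leaned towards K700E, with 9 of 10 above 0 and a median of 0.52. H1-4 was at 0.99, H2BC5 at 0.68 and H1-2 at 0.52, and H2AX, whose mRNA can be polyadenylated, at -0.46. K666T lay above R625H in H1-4, H2BC5 and H1-2 (137, 1456 and 3816 reads against 85, 1078 and 2801). None passed 2-fold. Most histone mRNAs carry no poly(A) tail, so in a poly(A) library such reads also depend on the selection, and its part was not tested.

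Mitochondrially encoded mRNAs were lower in K700E on one strand and higher on the other. Of the 12 mRNA genes transcribed from the heavy-strand promoter, 11 were lower in K700E, and their summed level went from 35579 CPM in R625H to 25037 in K700E, a fold of 0.704, with 34843 in WT and 32073 in K666T. MT-CYB, of complex III, was at log2 -0.87, MT-ATP6, of ATP synthase, at -0.83, MT-ND4 at -0.74 and MT-CO1 at -0.46, and MT-ATP8 was the exception at 0.02. MT-ND6, the mRNA gene of the light strand, had 255.5, 257.5, 255.9 and 669.6 CPM (1.38). Apart from MT-ATP8, K700E was the library that stood away from the other 3 in each of these.

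Reads on the opposite strand of the same 12 genes went from 1360 CPM in R625H to 1973 in K700E, a fold of 1.45. Light-strand transcripts outside the annotated genes would fall there. These opposite-strand reads were higher at 8 genes and lower at 4, and MT-ND5 (833.7 to 1329 CPM) held most of the summed rise. Whether its opposite-strand reads belong to the same transcripts as MT-ND6 was not tested. Over all genes, reads on the opposite strand were 5.74% in R625H and 5.97% in K700E. With unstranded counts MT-ND6 was at 0.30, since those counts add the reads of both strands. The ribosomal RNAs MT-RNR1 and MT-RNR2 were at 0.37 and 0.30.

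**Figure D5:**
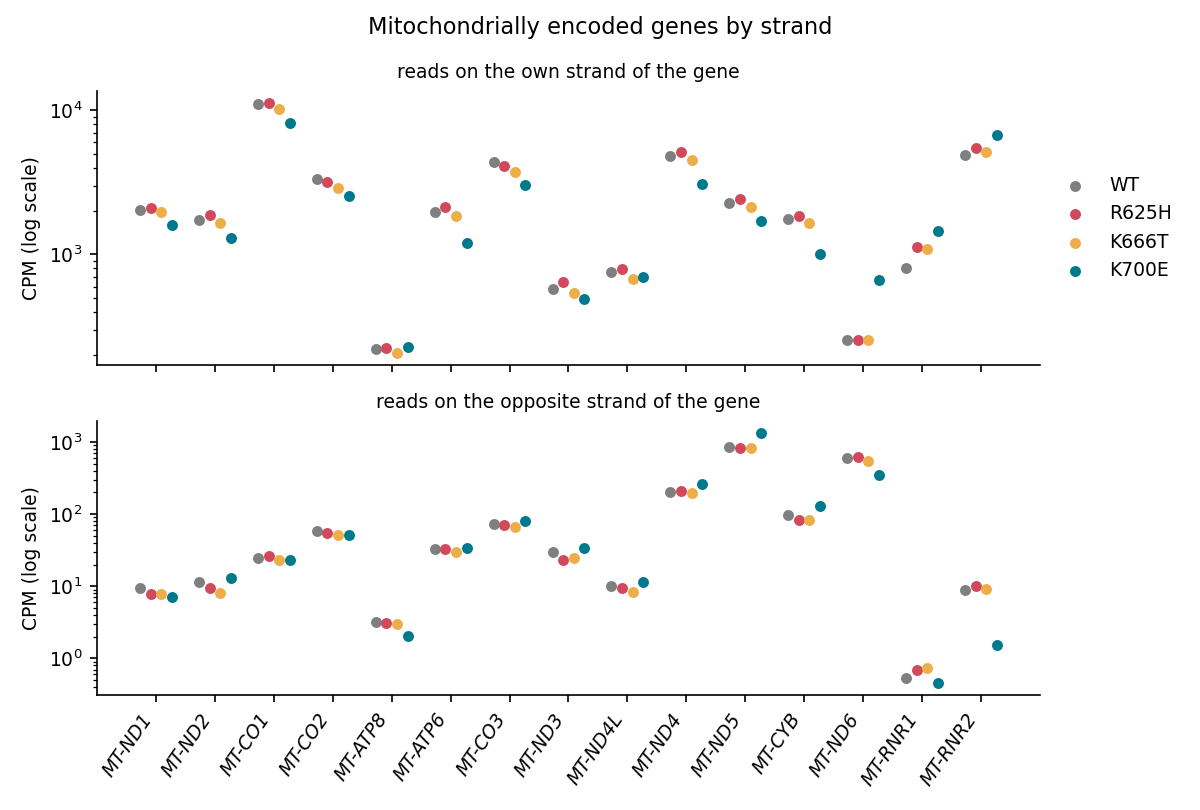
CPM (y axis, log scale) of 15 mitochondrially encoded genes in WT, R625H, K666T and K700E, on the strand of the gene (top) and on the opposite strand (bottom). K700E lies below the other libraries at most heavy-strand mRNA genes, above them at MT-ND6, and above them on the opposite strand of MT-ND5.

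The 30 genes higher in R625H held 12 of the 462 pseudogenes tested, 14 of the 12745 protein-coding genes and 4 of the 1171 other non-coding genes. Towards K700E these classes gave 3, 75 and 14 calls. The pseudogenes higher in R625H included RPL13AP25 (299 reads in R625H, 86 in K700E), RPLP0P9 (318 and 95) and RPL37P2 (138 and 45). Others were RPL6P19 (101 and 35), RPS15P4 (494 and 200) and the nuclear copy of mitochondrial sequence MTCO1P12 (1675 and 689). Reads of pseudogenes can come from near-identical copies, so these levels are uncertain. Among coding genes, PDF, a mitochondrial peptide deformylase (110 and 34 reads, -1.47), BLOC1S1, of lysosome biogenesis (218 and 87, -1.25), and MRPL12, of the mitochondrial ribosome (1325 and 558, -1.25), were lower in K700E than in any other library. TSIX, an antisense RNA, was at -2.15 (130 and 22 reads), but at 0.34 with unstranded counts.

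The 14 of these 30 genes with a protein-coding transcript had a median longest transcript of 1193.5 nt, against 3000 nt for the genes higher in K700E and 3533 nt for all. Over all coding genes the median ratio moved little with length, from -0.04 at 1000 to 1500 nt to 0.03 at 3000 nt and above. The calls differed more. Towards R625H they were 7 of 800 genes at 1000 to 1500 nt and 1 of 7560 at 3000 nt and above, with 4 and 38 towards K700E. Ratios below 0 made up 59.8 and 40.6% of those genes, and 45.6% of the 125 genes under 750 nt. The median G plus C content of the longest transcripts was 59.0% for the genes higher in R625H, 49.8% for those higher in K700E and 48.6% for all. Calls towards R625H were 7 of 1990 genes at 60% and above and 0 of 1975 under 40%, with 7 and 12 towards K700E. The part of transcript length or of G plus C content in the genes higher in R625H was not tested.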

How the data were processed

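Each of the 4 libraries was sequenced from poly(A) RNA of transfected HEK293T cells. The authors deposited raw counts per gene and raw counts of reads per splice junction; STAR 2.5.3a and HTSeq with hg19 are named in the submitters' processing notes, without roles. The junction files' longest overhang is a deposited score in nt and served as a filter only. Gene counts on the reverse strand were used. Rows that name no gene were left out: 16.5 and 15.2% of read pairs unmapped in R625H and K700E, 4.11 and 4.14% multimapping, 5.01 and 5.87% in no feature, 3.15 and 3.27% ambiguous.

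Pairs needed 20 reads in each library, both acceptors read in both, and an annotated downstream acceptor. Annotation came from matching intron lengths and order of GENCODE 29 (GRCh38) to the hg19 junctions (16779 of 18228 coding genes matched). Only hg19 positions are printed, and sequences are from GENCODE 29 transcripts. Fisher's exact tests and Wilson intervals were computed in Python 3.11.15 with scipy 1.17.1, tested on simulated data; edgeR 4.0.16 and DESeq2 1.42.0 gave alternative scalings only. Gene ratios used CPM with a prior count of 10.

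Named items were the 12 pairs, 8 exons (1 a gene) and 10 genes (at least 100 reads) with the largest difference in each direction, and listed members; other called items were chosen after their values were seen. For known genes the pair with the most upstream reads is given, in place of the most reads as planned. Members and lists were chosen with earlier results of these data known. NEFL and PECAM1 were not matched to an identifier and are not used here. Some items that meet these rules are not reported here.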

Additional observations from a re-analysis of the deposited data

How the results depend on the processing

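Without replicates, none of these differences has a biological spread, and shares from under 100 reads have wide intervals. No paired analysis was possible because each group has 1 library. Of the 48 pairs higher in R625H, 38 kept their call in every reading of the junctions in which they were tested, other than the 20-point limit, as did 2 of the 5 higher in K700E. Calls towards R625H and K700E were 85 and 8 at 5 points, 12 and 3 at 20 points, 73 and 25 with no limit on annotation, and 23 towards K700E where an acceptor could be unread and 9 at distances up to 50 nt. With sites unread in a library allowed, calls were 17 and 12 for acceptor pairs 3 to 9 nt apart, 25 and 36 at 31 to 100 nt, and for donor pairs 4 and 3, 2 and 3, and 8 and 2. The pooled share was 0.597 and 0.462% where both acceptors were read, and 0.579 and 0.457% without pairs over 10000 reads. Exon calls were 106 and 42 with the lower junction, 135 and 44 at 5 points, 12 and 6 at 20 points, 116 and 75 where a junction could be unread, 158 and 58 with no limit on annotation, and 21 and 9 with junctions within 4-fold, a set chosen after seeing the data. Genes 2-fold higher in K700E and R625H were 63 and 11 from 5 CPM, 178 and 85 with no filter, and 286 and 163 at 1.5-fold. Under TMM or DESeq2 scaling the SF3B1 ratio was -0.037 or -0.034 and the mitochondrial median -0.44 or -0.44; with unstranded counts the latter was -0.39 and the MHC class I median 0.23. Adding multi-mapped reads turned TRIM28 to 0.41 points, and, among pairs not called, DVL2 to -3.71, BRD9 to 5.43 and MAP3K7 to -0.17. TSIX was at 0.34 with unstranded counts. The cause of these moves was not tested.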

Other observations

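Small non-coding RNA genes were among those higher in K700E. BCYRN1, a neuronal Alu-derived RNA made by RNA polymerase III, had 119 reads in R625H and 841 in K700E, beside 128 in WT and 131 in K666T, a log2 ratio of K700E over R625H of 2.71. The U6 snRNA genes RNU6-2, RNU6-4P, RNU6-6P and RNU6-33P had 52, 46, 30 and 46 reads in R625H and 148, 152, 99 and 143 in K700E, with ratios of 1.34, 1.53, 1.44 and 1.44. Their WT and K666T counts lay between 27 and 76. These genes have many near-identical copies and no poly(A) tail, so their level in poly(A) libraries is uncertain, and they were chosen after their values were seen.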
